A study of Mus musculus with 6 samples.

Results

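The genes described here are 10 members of the cellular response to low oxygen: Hif1a, Egln1, Egln3, Vegfa, Adm, Bnip3, P4ha1, Ero1l, Ndrg1 and Ankrd37. They were chosen by name, with earlier results of these data known, so their comparison with all genes is descriptive. Every probe set that the array's annotation assigned to exactly 1 gene was taken when that gene was among them, which gave 24 probe sets of 45101 on the array, and all 10 genes were measured among 18193. The annotation lists Ero1l under its newer symbol, Ero1a. Microarrays were hybridised with RNA of memory-phenotype CD4+ T cells from female C57BL/6 mice, aged 8 to 10 weeks, with MOG35-55-induced experimental autoimmune encephalomyelitis (EAE), a model in which T cells reactive to myelin inflame the spinal cord. The cells came either from the spinal cord at the acute clinical stage (3 arrays) or from the draining inguinal lymph node at the same stage (3 arrays). Both groups carried the disease, and no cells from healthy mice were analysed here. The labels give neither the number of mice per array nor whether arrays come from different animals, and the spread behind each p-value may thus be technical.

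Hypoxia-inducible factor (HIF) is a transcription factor made of an oxygen-regulated alpha subunit, such as the product of Hif1a, and the stable partner Arnt. In normal oxygen the prolyl hydroxylases encoded by the Egln genes mark the alpha subunit, the Vhl ubiquitin ligase binds the mark and the protein is degraded. In low oxygen the alpha subunit persists and activates genes for glucose use, blood vessel growth, red cell production and collagen processing. Several of these targets, Egln1 and Egln3 among them, feed back on the pathway. In T cells Hif1a is also raised by antigen receptor and cytokine signals at normal oxygen, and it is known for its part in glycolysis and in the balance between type 17 helper cells and regulatory T cells. The abundance of the Hif1a transcript is no measure of the protein, whose amount is set mainly by its degradation.

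HIF binds a short core, ACGTG or GCGTG, and the promoters of several members show it. In the 250 bases before the start site, at least 1 match on either strand was found in 38.6% of 32851 mouse promoters of the same length in RefSeq (GRCm38.p6). Of the members, 9 had a promoter in that table, and Ndrg1 had none there, so its promoter was not searched. Each of the 9 had at least 1 match, although the main promoter of Vegfa had none and its match lay in a second promoter of the gene. The narrower core ACGTG was present in 16.6% of all promoters and in 8 of the 9 members, for Vegfa again only in the second promoter. The shares count single promoters, whereas a member was counted if any of its promoters matched. These matches are letters in a window, and binding was not measured here. The stretches below are 60 bases each, read on the gene's own strand, with the core in capitals on whichever strand it fell (CACGT and CACGC are the cores read from the other strand). They are shown for the 2 hydroxylase genes that went opposite ways and for 3 targets whose averages were higher in the spinal cord.
Egln1, chr8:124949293-124949352, minus strand, 98 to 39 bases before the start: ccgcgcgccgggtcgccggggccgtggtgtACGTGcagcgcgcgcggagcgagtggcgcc
Egln3, chr12:54204065-54204124, minus strand, 250 to 191 bases before the start: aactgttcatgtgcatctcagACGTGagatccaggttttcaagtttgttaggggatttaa
Bnip3, chr7:138909585-138909644, minus strand, 138 to 79 bases before the start: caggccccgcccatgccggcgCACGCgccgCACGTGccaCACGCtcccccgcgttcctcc
P4ha1, chr10:59323121-59323180, plus strand, 175 to 116 bases before the start: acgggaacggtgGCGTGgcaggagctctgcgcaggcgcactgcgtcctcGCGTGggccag
Ero1l, chr14:45318619-45318678, minus strand, 106 to 47 bases before the start: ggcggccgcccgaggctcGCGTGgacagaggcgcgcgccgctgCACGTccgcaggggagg
Bnip3 held the most matches of these, 5 in its 250 bases, where a palindrome (CACGTG) counts once on each strand. Egln3, the member that was lower in the spinal cord, also holds an ACGTG core, so the presence of the letters did not separate it from the members that were higher.

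Of the 10 genes, 9 had a higher average in the spinal cord T cells than in the lymph node T cells, and 1, Egln3, had a lower one. Only Ndrg1 passed the test over all genes, rising 2.73-fold. Ero1l, P4ha1, Bnip3 and Egln1 had averages 1.92-, 1.81-, 1.58- and 1.56-fold higher that did not pass, Hif1a itself was 1.37-fold higher, and the secreted factor genes Vegfa and Adm were 1.16- and 1.15-fold higher, also without a call. The test was limma's moderated comparison of log2 intensity between the tissues, two-sided, without other terms, and a gene was called at a Benjamini-Hochberg adjusted p under 0.05 among 18193 genes. It called 2.54% of all genes, 1.13% as higher in the spinal cord and 1.41% as lower. The median change over the 10 genes was 0.58 on the log2 scale, against 0.0019 over all genes, and 50.7% of all genes had a higher average in the spinal cord. The intensities of the 2 tissues did not overlap for 6 of the 10 genes, 5 of them higher in the spinal cord and 1 lower, where 18.5% of all genes had groups without overlap, 8.81% higher and 9.68% lower.

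**Figure D1:**
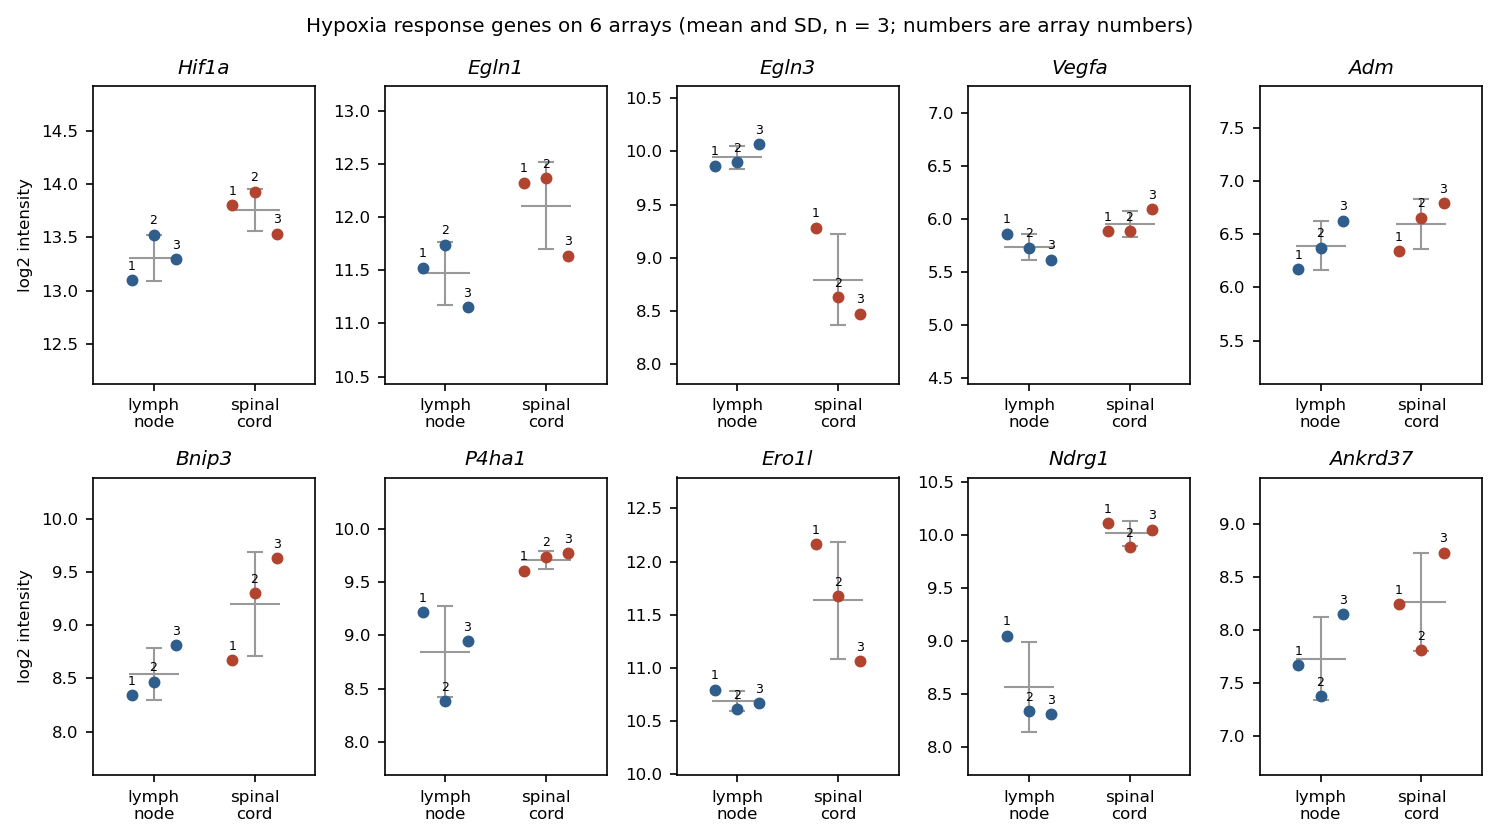
Log2 intensity of each hypoxia response gene (its brightest probe set) on the 3 lymph node arrays (blue) and the 3 spinal cord arrays (red), labelled by array number, with the tissue mean and SD in grey; each panel spans the same range on the log2 scale. Ndrg1, P4ha1, Ero1l, Hif1a, Vegfa and Egln3 have groups that do not overlap, and Egln3 alone is lower in the spinal cord.

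The arrays are numbered 1 to 3 in each tissue, and arrays of the same number deviated from their tissue means together across all genes. A fit with the number as a block compares each spinal cord array with the lymph node array of its number. With that block, 5 members were called higher (Ndrg1, Egln1, Ankrd37, Ero1l and Bnip3) and 1 lower (Egln3), against 3.67% and 7.45% of all genes in those directions, and 11.1% in all. Hif1a and P4ha1 missed the threshold with the block (adjusted p = 0.0952 and 0.0507 by limma), and Vegfa and Adm lay further from it (0.371 and 0.300). The spinal cord array was the higher one in all 3 same-number comparisons for 9 of the 10 genes, and this held for 20.2% of all genes. The calls of the block rest on a pairing that was found in the data and is not stated by the labels.

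Hif1a encodes the oxygen-regulated subunit and was the most heavily covered transcript apart from Ndrg1, with 4 probe sets. Its brightest probe set (1427418_a_at) read 14317, 15609 and 11884 in the spinal cord and 8771, 11805 and 10046 in the lymph node, in the order of arrays 1 to 3 as in all such triplets here. The groups did not overlap, but spinal cord array 3 and lymph node array 2 were nearly equal. The log2 means were 13.76 ± 0.20 and 13.31 ± 0.21 (SD, n = 3 each), a change of 0.45 ± 0.17 SE that limma did not call (adjusted p = 0.295, or 0.0952 with the replicate block). The 95% interval of the change ran from 1.03-fold to 1.81-fold higher, before any adjustment for the number of genes.

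The other Hif1a probe sets gave larger changes with more scatter. Probe set 1416035_at read 6800, 6984 and 5776 in the spinal cord and 1979, 3254 and 4213 in the lymph node, a 2.16-fold difference (1.11 ± 0.29 SE on the log2 scale) without overlap. Over the 34945 probe sets with 1 gene symbol its adjusted p was 0.164 by limma, and 0.0698 with the block. Probe set 1448183_a_at read 359, 849 and 1246 in the spinal cord and 170, 98 and 785 in the lymph node, so array 3 of each tissue was the brightest and the groups overlapped (1.62 ± 0.85, adjusted p = 0.531 by limma). The fourth, 1431981_at, was dim at 39 to 100, and its groups overlapped. All 4 pointed the same way, and their changes ran from 0.45 to 1.62.

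Among the hydroxylases that mark HIF for degradation, the averages of Egln1 and Egln3 went opposite ways, and neither gene was called with tissue alone. Egln2, a hydroxylase gene outside the members, read 2315, 1592 and 1527 in the spinal cord and 3141, 1712 and 1793 in the lymph node. Its average was lower in the spinal cord, with overlap (-0.26 ± 0.29, adjusted p = 0.781 by limma). Egln1 encodes the main oxygen sensor of most cells. It read 5123, 5278 and 3189 in the spinal cord and 2943, 3423 and 2275 in the lymph node, so that spinal cord array 3 fell below lymph node array 2 and the groups overlapped. The change was 0.64 ± 0.25 SE on the log2 scale (adjusted p = 0.336 by limma). Within arrays of the same number the ratios were 1.74, 1.54 and 1.40, and the block fit called the gene (adjusted p = 0.0284 by limma). Its second probe set had a change of 0.49 ± 0.34 and was called in neither fit.

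Egln3 encodes a hydroxylase that low oxygen induces strongly in many cell types. It was 2.22-fold lower in the spinal cord, reading 622, 396 and 355 there and 934, 956 and 1072 in the lymph node. Every spinal cord array lay below every lymph node array, and lymph node values were close together while spinal cord array 1 stood above the other two. The log2 change was -1.15 ± 0.23 SE (95% interval -1.70 to -0.60), with an adjusted p of 0.0676 by limma and 0.0260 with the block. Without spinal cord array 1 the change was -1.39 and the adjusted p 0.0267 by limma. Without any other single array the adjusted p lay between 0.128 and 0.231. The second Egln3 probe set read 162, 134 and 124 against 198, 210 and 209, again without overlap (-0.56 ± 0.13, adjusted p = 0.139 by limma). The gap between the changes of Egln1 and Egln3 was 1.79 on the log2 scale, and the within-array log2 difference of the 2 genes ran from 3.04 to 3.74 in the spinal cord and from 1.09 to 1.84 in the lymph node. An exact two-sided permutation test of that difference, chosen after the values were seen, gave p = 0.1, the smallest that 3 against 3 arrays allow.

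The secreted factors showed little signal and small differences. Vegfa encodes the growth factor that directs new blood vessels. Its brighter probe set read 59, 59 and 68 in the spinal cord and 58, 53 and 49 in the lymph node, below the 71 that was the highest array median. The groups did not overlap, but by a margin of 1 unit, and the change was 0.22 ± 0.12 SE (95% interval -0.09 to 0.52, adjusted p = 0.529 by limma). Its second probe set read 33, 42 and 59 against 37, 28 and 25. That gave a change of 0.55 ± 0.26 with overlapping groups. Adm encodes adrenomedullin, a peptide that widens vessels. It read 81, 101 and 111 in the spinal cord and 72, 83 and 99 in the lymph node, with overlap and a change of 0.21 ± 0.18 (95% interval -0.23 to 0.65, adjusted p = 0.706 by limma). Its other probe set stayed between 29 and 39 on every array. No detection calls were used here, and at such low intensity the precision is that of the intervals given.

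Bnip3 encodes an outer mitochondrial membrane protein that promotes removal of mitochondria in low oxygen. It read 408, 630 and 792 in the spinal cord against 324, 354 and 450 in the lymph node. Spinal cord array 1 lay inside the lymph node range and the other 2 above it. The log2 change was 0.66 ± 0.27 SE (adjusted p = 0.351 by limma, and 0.0432 with the block), and the same-number ratios were 1.26, 1.78 and 1.76.

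Among the members with a role in the endoplasmic reticulum, P4ha1 encodes the catalytic subunit of collagen prolyl hydroxylase, which needs oxygen to stabilise collagen. Its brighter probe set read 782, 856 and 875 in the spinal cord and 596, 333 and 494 in the lymph node. The spinal cord arrays were close together, all above the lymph node, and the change was 0.86 ± 0.23 SE (adjusted p = 0.142 by limma, and 0.0507 with the block). Its dim probe set, at 21 to 32, was near the 20th percentile of all intensities, which was 25.

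Ero1l encodes an oxidase that recharges disulfide formation in secreted proteins. All 3 of its probe sets had groups that did not overlap. The brightest read 4597, 3263 and 2142 in the spinal cord and 1777, 1565 and 1625 in the lymph node, a change of 0.94 ± 0.28 SE that was not called (adjusted p = 0.187 by limma, and 0.0409 with the block). The spinal cord arrays spread widely (SD 0.55 on the log2 scale) while those of the lymph node lay close together (SD 0.09), and the same-number ratios were 2.59, 2.08 and 1.32. A second probe set, 1419029_at, read 2574, 2303 and 1904 against 875, 1115 and 1025 and was called over all probe sets (2.24-fold, 1.17 ± 0.16, adjusted p = 0.0337 by limma). The third read 639, 732 and 469 against 414, 267 and 224 (1.05 ± 0.28, adjusted p = 0.182 by limma).

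Ndrg1 encodes a cytoplasmic protein that low oxygen, metals and cell differentiation induce, and in T cells it has been linked to unresponsiveness after antigen. Its brightest probe set read 1106, 947 and 1061 in the spinal cord and 531, 324 and 318 in the lymph node. The lowest spinal cord array was well above the highest lymph node array, and the spinal cord arrays were close together. The log2 means were 10.02 ± 0.12 and 8.57 ± 0.42 (SD, n = 3 each), and the change was 1.45 ± 0.22 SE with an adjusted p of 0.0348 by limma. With 1 array left out, the change stayed between 1.32 and 1.69, but the call held only without lymph node array 1 (adjusted p = 0.0179 by limma). Without spinal cord array 1, 2 or 3 the adjusted p was 0.108, 0.119 or 0.121, and without lymph node array 2 or 3 it was 0.141 or 0.106.

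The 5 Ndrg1 probe sets did not give 1 size. Probe set 1456174_x_at read 834, 564 and 979 against 321, 231 and 209 (3.10-fold, 1.63 ± 0.26, adjusted p = 0.0509 by limma), and 1450976_at read 176, 170 and 199 against 124, 77 and 70 (1.05 ± 0.23, adjusted p = 0.119). The remaining 2, 1423413_at and 1450977_s_at, had overlapping groups and changes of 0.42 ± 0.42 and 0.14 ± 0.20. When all 5 were averaged on the log2 scale, the change of the gene was 0.94 and its adjusted p 0.0630 by limma.

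Ankrd37 encodes a small ankyrin repeat protein and is a known direct target of HIF. It read 303, 224 and 424 in the spinal cord against 203, 166 and 283 in the lymph node. The groups overlapped, since array 3 was the brightest of both tissues and array 2 the dimmest, but the same-number ratios were alike at 1.49, 1.35 and 1.50. The change of 0.53 ± 0.30 SE was not called with tissue alone (adjusted p = 0.518 by limma) and was called with the block (adjusted p = 0.0368).

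Of the 24 probe sets, 22 had a higher average in the spinal cord, as had 52.1% of all probe sets with 1 gene symbol, and the 2 with a lower average were both of Egln3. The fit over probe sets called 2 as higher, 1 each of Ero1l and Ndrg1, and 0 as lower, where 1.49% of all probe sets were called, 0.701% as higher and 0.784% as lower. The block called 7 as higher and 1 as lower, where 7.65% of all probe sets were called, 2.94% as higher and 4.71% as lower. The probe set of Bnip3 and the brightest of Ero1l, called with the block over genes, were not called over probe sets (adjusted p = 0.0596 and 0.0597 by limma). At an unadjusted p under 0.05 there were 12 of the 24 and 12.8% of all probe sets. Probe sets of 1 gene share its transcript and are no independent evidence. The groups of 12 probe sets did not overlap, 10 of them higher and 2 lower. Of all probe sets 16.8% had such groups, 8.39% higher and 8.45% lower.

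**Figure D2:**
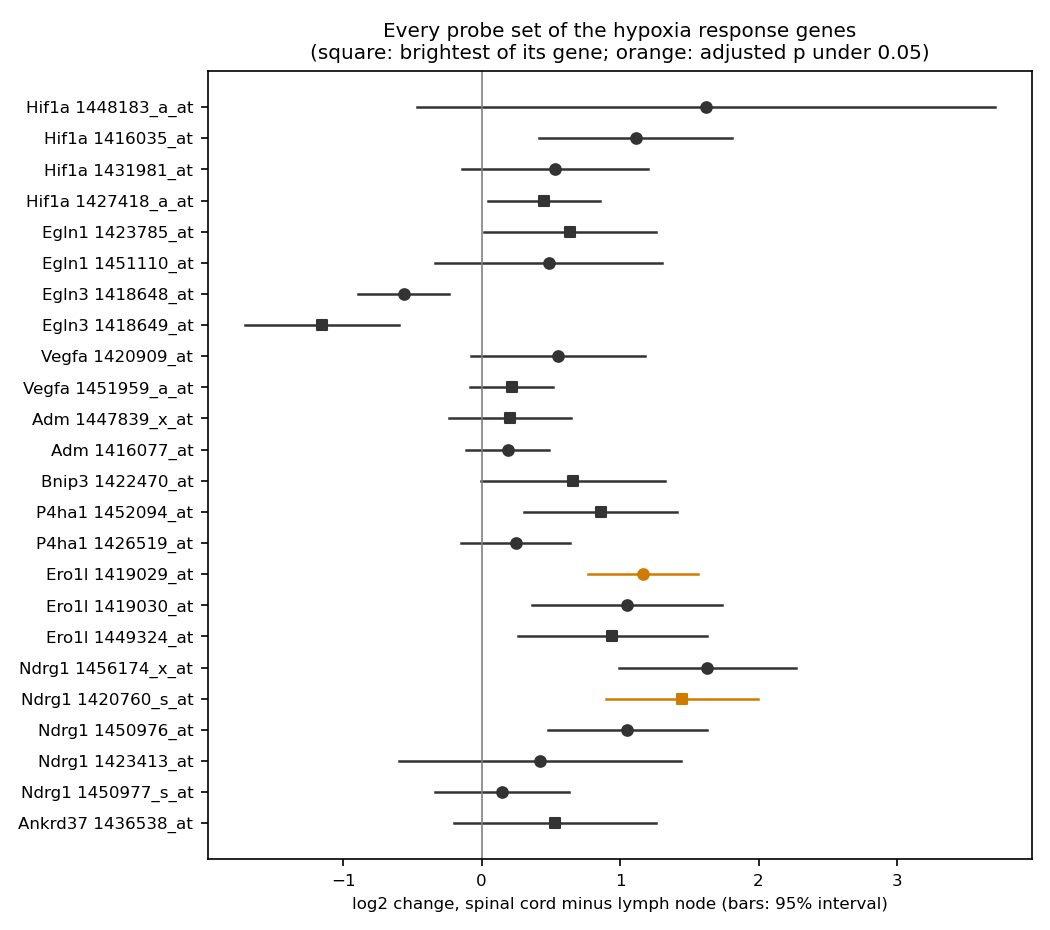
Log2 change (spinal cord minus lymph node) of the 24 probe sets of the hypoxia response genes with 95% intervals, squares for the brightest probe set of a gene and orange for an adjusted p under 0.05. Both Egln3 probe sets lie below 0 and the other 22 above it, and the called ones are 1 of Ero1l (1.17) and 1 of Ndrg1 (1.45).

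In the rest of the oxygen-sensing machinery, 2 of 16 measured genes rose, 0 fell and 14 were not called, where 2.54% of all genes were called, 1.13% higher and 1.41% lower. Epas1 encodes the other main alpha subunit of HIF. It read 1625, 1294 and 1589 in the spinal cord and 427, 576 and 478 in the lymph node, a change of 1.61 ± 0.16 SE (adjusted p = 0.00979 by limma), and it was called whichever array was left out. Siah2 encodes a ubiquitin ligase that targets the Egln hydroxylases for degradation. It read 1064, 939 and 1360 against 321, 331 and 400 (1.67 ± 0.18, adjusted p = 0.0114 by limma) and lost its call only without lymph node array 2 (adjusted p = 0.0668). With the block the count was the same, 2 higher and 0 lower. Of the 16 genes 4 had a higher average, and the median change was -0.23. The uncalled estimates of Ep300, a coactivator of HIF, and of Hif1an, a hydroxylase that blocks coactivator binding, were -0.55 ± 0.28 and -0.54 ± 0.32, with 95% intervals that crossed 0. Arnt2 and Hif3a, the remaining genes named for the list, had changes of -0.42 ± 0.17 and -0.34 ± 0.17 that were not called.

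Among the other known HIF targets outside glycolysis, 2 of 35 measured genes rose, 0 fell and the median change was 0.14, where 2.54% of all genes were called. Bhlhe40, a transcriptional repressor that low oxygen and T cell activation both induce, read 15404, 17706 and 13455 in the spinal cord and 1464, 1397 and 1868 in the lymph node (3.30 ± 0.17, adjusted p = 0.00191 by limma), and was called whichever array was left out. Mxi1, an antagonist of Myc, changed by 1.10 ± 0.19 (adjusted p = 0.0461 by limma) and was not called without any 1 array, with adjusted p from 0.0994 to 0.124. Its call held in 5 of 10 other settings. The highest adjusted p among those 10 was 0.103 by limma, with a floor at the 20th percentile. Ier3, an early response gene, read 999, 900 and 1776 against 178, 119 and 364 (2.56 ± 0.46) and missed the threshold (adjusted p = 0.0523 by limma, 0.00144 with the block). The carbonic anhydrase genes Car9 and Car12 had changes of 0.42 ± 0.13 and -0.64 ± 0.16 and were called in neither fit. Angptl4, which encodes an inhibitor of lipoprotein lipase, averaged higher in the spinal cord by 0.92 ± 0.24. It missed the threshold with tissue alone (adjusted p = 0.138 by limma) and passed it with the block (0.0144). With the block 6 genes of the list were higher and 1 was lower, against 3.67% and 7.45% of all genes. The lower one was Ddit4, which read 7021, 6283 and 2437 in the spinal cord and 12350, 9594 and 5016 in the lymph node. Its change was -0.82 ± 0.51 with overlapping groups (adjusted p = 0.56 by limma, 0.0175 with the block).

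Of 15 measured genes of glucose uptake and glycolysis, 14 had a higher average in the spinal cord and the median change was 0.59. Hk2, the inducible hexokinase, read 1092, 1200 and 2153 against 253, 244 and 338 (2.36 ± 0.29, adjusted p = 0.0167 by limma), and Slc2a3, a glucose transporter gene, rose by 1.27 ± 0.21 (adjusted p = 0.0434). They were the 2 called, where 2.54% of all genes were. The block called 4 as higher, Hk2, Slc2a3, Tpi1 and Aldoc, and 1 as lower, against 3.67% and 7.45% of all genes. Hk2 kept its call in 3 of the 6 fits without 1 array (highest adjusted p 0.0951), and Slc2a3 in 0 of the 6 (0.0526 to 0.135). With a floor at the 20th percentile Hk2 was not called (adjusted p = 0.0674 by limma). Slc2a3 also lost its call with 16 added before log2 (adjusted p = 0.0551), with a floor at the 20th percentile (0.104) and with its probe set that has no suffix (0.253), all by limma. Pdk1, which diverts pyruvate from mitochondria and is a known HIF target, was the 1 member with a lower average. It read 1918, 1591 and 2076 in the spinal cord and 2618, 3789 and 4107 in the lymph node (-0.90 ± 0.21, adjusted p = 0.108 by limma, 0.0332 with the block), and the groups did not overlap. With tissue alone, limma called Pdk1 lower when its probe sets were averaged (-1.20, adjusted p = 0.00992). The same held for its probe set that has no suffix (-0.82, adjusted p = 0.0428 by limma). Without 1 array it was called in 0 of the 6 fits (adjusted p from 0.0539 to 0.324 by limma).

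The ligands and receptors of the VEGF and adrenomedullin pathways, 13 measured, held 0 genes called by limma, and 0 at an unadjusted p under 0.05, and had a median of 0.10. Over all genes 2.54% were called and 14.3% had an unadjusted p under 0.05. The block called 1, Ramp3, as higher, where it called 3.67% of all genes as higher and 7.45% as lower. Calcrl, which encodes a subunit of the adrenomedullin receptors, read 408, 581 and 550 against 500, 1580 and 1322 with overlap. Its log2 means were 8.99 ± 0.27 and 9.99 ± 0.89 (SD, n = 3 each), and the difference was not called (95% interval -2.09 to 0.09, adjusted p = 0.394 by limma). The change was -0.36 with the mean of its probe sets and -0.0021 with the probe set that has no suffix, and it was called only without lymph node array 1 (-1.51, adjusted p = 0.0487). Protein relatives and partners of the members, 10 measured, also held 0 genes called by limma, and 1 at an unadjusted p under 0.05, with a median of -0.17. The same shares of all genes stand beside these counts. Ndrg3, a relative of Ndrg1, read 983, 1080 and 727 against 2211, 1921 and 1147, a change of -0.89 ± 0.29 opposite in sign to that of Ndrg1, which was not called with tissue alone (adjusted p = 0.227 by limma) and was called with the block (0.0174).

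**Figure D3:**
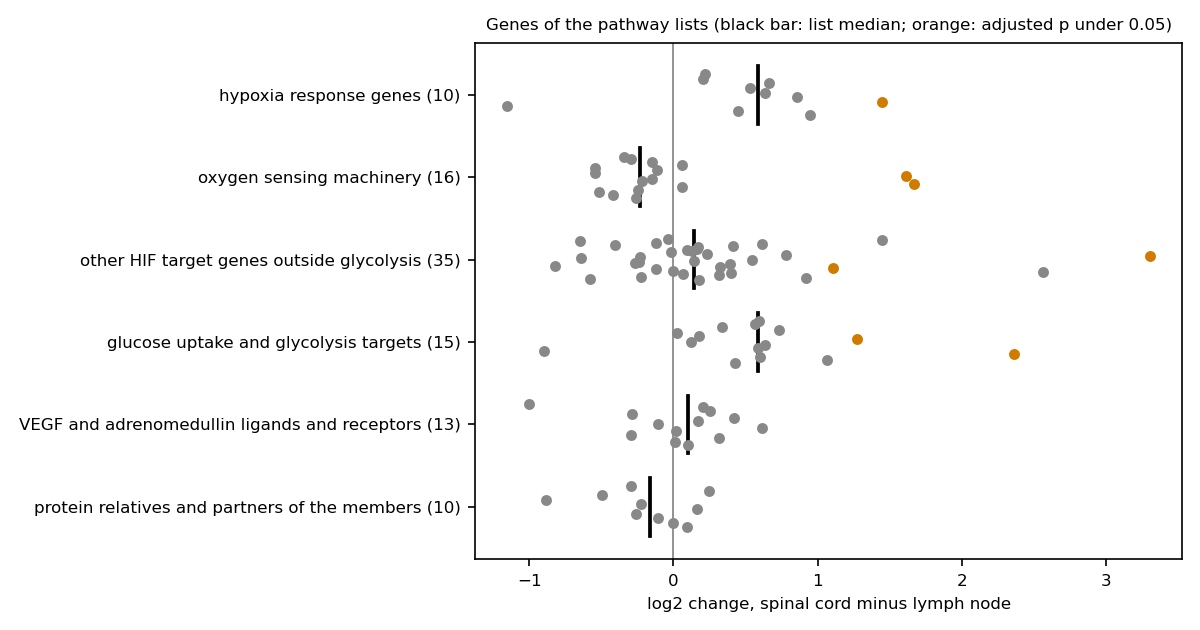
Log2 change (spinal cord minus lymph node) of each measured gene in the hypoxia response group and in the 5 lists of related genes, with the list median as a black bar and genes at an adjusted p under 0.05 in orange. The medians of the hypoxia response genes (0.58) and of the glucose uptake and glycolysis genes (0.59) lie to the right, and that of the oxygen sensing machinery (-0.23) to the left of 0.

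**Figure D4:**
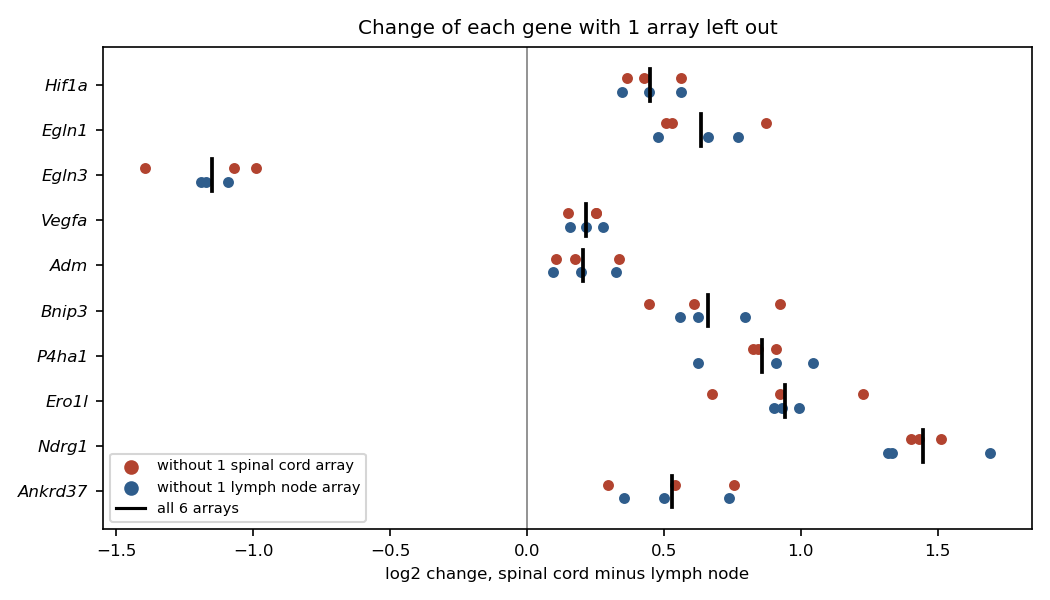
Log2 change of each hypoxia response gene with all 6 arrays (black bar) and with 1 array left out (red, a spinal cord array; blue, a lymph node array). No gene crosses 0, and the points of Ndrg1 run from 1.32 to 1.69 and those of Egln3 from -1.39 to -0.99.

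The labelled cell type was checked against its markers, and other cell types were looked for, because macrophages, neutrophils and endothelial cells also carry hypoxia response transcripts. T cell markers were bright on all arrays: Cd3e, Cd3g, Cd3d, Cd4 and 5 more had summed intensities of 44613 to 51379 in the spinal cord and 44057 to 62693 in the lymph node, and 0 of 9 were called by limma, with 0 at an unadjusted p under 0.05. Of 20 macrophage, monocyte and microglia markers 18 had a higher average in the spinal cord, with a median change of 0.94; 0 were called by limma with tissue alone. At an unadjusted p under 0.05 there were 16 of the 20, against 14.3% of all genes, and 9 were higher with the block, against 3.67% of all genes. Their summed intensity was 12138 to 19442 in the spinal cord and 14472 to 15416 in the lymph node. Most of that sum was Ctss, which read 9965 to 13155 in the spinal cord and 13529 to 14454 in the lymph node. Without it the sums were 1691, 6287 and 3521 on the spinal cord arrays and 943, 962 and 1060 on those of the lymph node. Of 9 neutrophil markers all had a higher average (median 1.26; 1 called, Mmp9), with sums of 850, 2428 and 961 on the spinal cord arrays and 414 to 590 on the others. Without Mmp9 the sums were 430, 2169 and 669 in the spinal cord and 445, 311 and 318 in the lymph node, so that array 1 of the spinal cord was no higher than array 1 of the lymph node.

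Spinal cord array 2 thus held the most myeloid signal and array 1 the least. Hif1a and Egln1 read highest on spinal cord array 2 and lowest on array 3. Bnip3, Adm and P4ha1 read lowest on array 1 and highest on array 3. Ndrg1 read highest on array 1 and lowest on array 2, Ero1l and Egln3 read highest on array 1 and lowest on array 3, Ankrd37 read highest on array 3 and lowest on array 2, and Vegfa read highest on array 3. The part of myeloid RNA in the members' changes was not tested. Of 8 endothelial markers 0 were called by limma, with 0 at an unadjusted p under 0.05 (median -0.0012), with sums of 636 to 685 in the spinal cord and 528 to 834 in the lymph node, and the astrocyte, oligodendrocyte and neuron markers also held 0 genes called by limma, with 0, 1 and 0 at an unadjusted p under 0.05. Over all genes 2.54% were called and 14.3% had an unadjusted p under 0.05. Of 6 oligodendrocyte markers 1, Mog, was below the 20th percentile on every array, while the myelin genes Mbp and Cnp were bright on all arrays of both tissues, at 3397 to 6110 and 4059 to 9444, and the list's sums were 7665 to 12824 in the spinal cord and 10425 to 15752 in the lymph node. Of 6 neuron markers 2, Snap25 and Tubb3, were below it on every array and 4 were not, with Rbfox3 at 154 to 208 and Stmn2 at 103 to 180, and sums of 393 to 459 and 381 to 446. The astrocyte sums were 336 to 352 and 297 to 328. Of 7 dendritic cell markers 1 was called higher, Itgax, an integrin gene that macrophages share, which read 229, 315 and 246 against 97, 79 and 97 (1.53 ± 0.17, adjusted p = 0.0128 by limma). Of 7 B cell markers 1 was called lower, Cd22, a surface receptor gene of B cells, which read 108, 98 and 116 against 620, 679 and 750 (-2.67 ± 0.13, adjusted p = 0.00171 by limma). The block called 2 as lower, Cd22 and Cd79b, where it called 7.45% of all genes as lower. Of the 7 markers 3 had a higher average in the spinal cord. Without Cd22 the sums were 254, 244 and 245 on the spinal cord arrays and 342, 263 and 243 on those of the lymph node. In such samples fewer cells of a type and less RNA per cell cannot be told apart.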

How the data were processed

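Titles gave the tissue of each of the 6 arrays, 3 per tissue. Per the labels' protocols, RNA was purified with an RNeasy kit and biotin-labelled cRNA was made from 1 ng of RNA in a 2-cycle amplification, which can add scatter between arrays. Per the submitters' processing notes the intensity values came from RMA. The intensity values as deposited are linear whole numbers between 9 and 39505, so log2 was taken here. Array medians were 68 to 71. The number of arrays limits the precision. Probe sets were named from the platform annotation, 34945 with exactly 1 symbol. Each gene was represented by its brightest probe set, and every probe set of the members was also fitted.

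Tests used limma 3.58.1 in R 4.3.3, with tissue as the only term and Benjamini-Hochberg adjustment over all features. Tables and figures were made with Python 3.11.15, pandas 2.3.3, numpy 2.4.6, scipy 1.17.1 and matplotlib 3.10.9. The fit was tested on simulated data. The members, lists and tests were chosen with earlier results of these data known. Named genes were all members, called genes of each list and up to 4 per pathway list by adjusted p. Other list genes (Egln2, Ctss, Car9, Angptl4, Ddit4, Ep300, Hif1an, Tpi1, Aldoc, Cd79b, Mog, Mbp, Cnp, Snap25, Tubb3, Rbfox3 and Stmn2) were named after their values were seen.

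After each tissue mean was subtracted, the correlation over genes between a spinal cord and a lymph node array was 0.576, 0.509 and 0.777 where the numbers matched and -0.569 to 0.00506 where they did not. The number was therefore taken to pair the arrays. Genes are not independent, and centring builds in part of the contrast. No array was a copy of another: each pair differed in the value of 93.5% of probe sets or more.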

Additional observations from a re-analysis of the deposited data

How the results depend on the processing

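No member changed sign under any alternative. The count of called members, 1 with tissue alone, was 6 with the replicate block, 2 with array weights (Egln3 lower as well) and 0 with a floor at the 20th percentile, with the mean of all probe sets of a gene or with the probe set that has no suffix. It was 0 to 1 with each array left out. It stayed at 1 with only genes above the 40th percentile of brightness tested (which removed Vegfa), median centring, quantile normalization, a trended and robust variance, or 16 added before log2. Of the members' probe sets 2 were called, against 8 with the replicate block, 3 with the 40th percentile filter and 3 with quantile normalization. The count was 1 with the trended variance, 1 with 16 added, 0 with the floor and 0 to 2 with an array left out. It stayed at 2 with median centring and with array weights. Over all genes 463 were called, against 2023 with the block, 161 with the floor and 81 to 312 with an array left out. In the related lists, the mean of all probe sets turned the sign of Arnt (-0.30 to 0.042) and of Nrp2 (0.25 to -0.027), neither called; the cause was not tested.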
